A study of Mus musculus with 4 samples.

Results

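Effector and memory CD4 T cells are the antigen-experienced helper T cells of the colon wall. They were picked here out of all sorted leukocytes by their transcripts alone, and 1003 of 20428 kept cells qualified. A member carried at least 2 unique molecular identifiers (UMIs, each one captured transcript molecule) of the CD3 genes Cd3e, Cd3d and Cd3g. It carried at most 1 UMI of the B cell genes Cd79a and Cd79b and none of Cd8a, Cd8b1, Trdc or Foxp3, which mark CD8, gamma-delta and regulatory T cells. It carried at least 2 UMIs of Icos, Maf, Rora and Cxcr6 together and at most 1 of Izumo1r, Pdcd1 and Cxcr5, which mark follicular helper cells. The members were thus chosen by the UMI counts of these 16 genes, and no result is drawn from a test of their levels. They were left out of the ranked genes and the list counts. They stayed in the fits, so the numbers of genes tested, and of calls between classes, may include them. Control 1 and control 2 held 125 and 231 members, and stress 1 and stress 2 held 445 and 202.

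The mice were wild-type C57BL/6 animals, their age is not given in the labels, and droplet single-cell RNA sequencing was run on CD45+ cells sorted from the total colon. Stress mice had undergone restraint on each of 7 days, which is used in rodents to model psychological stress, and control mice had not, with 2 libraries per group. Whether each library is a separate animal is not in the labels. The spread behind every p-value is therefore that between libraries and may be technical. The libraries held 2941, 6124, 10259 and 5591 barcodes in the order control 1, control 2, stress 1, stress 2, and that order is kept for every set of 4 values below. Members had medians of 2952, 3343, 2208 and 4771 UMIs, with the lowest and the highest both under stress. No member barcode was found in more than 1 library.

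After meeting antigen, helper T cells take on programmes that are read from their transcription factors and cytokines. Th1 cells use T-bet (Tbx21), make interferon gamma (Ifng) and respond to interleukin 12. Th17 cells make interleukins 17A, 17F and 22 and respond to interleukin 23, and in the gut they help to keep bacteria away from the epithelium. Cells that make both interferon gamma and interleukin 17A are known from inflamed mouse intestine.

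The label was checked against markers that the choice did not use. Cd4 had at least 1 UMI in 33.6, 42.4, 44.9 and 62.4% of members, close to the 40.9, 36.7, 46.7 and 64.7% of Foxp3 cells and far above the 0 to 2.78% of CD8 cells. A T cell receptor constant gene (Trac, Trbc1 or Trbc2) was missing from 1.6, 0.433, 1.80 and 0.495% of members. The co-stimulatory receptor Tnfrsf4 (OX40) stood at 558, 141, 593 and 356 CPM (UMIs summed across the members of a library, scaled to the same total in each library), and the interleukin 18 receptor Il18r1 at 127, 94.4, 207 and 191 CPM. Both names on the marker list that stood outside the rule were thus present in every library, with Tnfrsf4 lowest in control 2.

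Control 2 stood apart from the other libraries, first in its naive transcripts. A UMI of Ccr7 or Lef1, genes of naive and recirculating T cells, was carried by 25.6, 63.6, 25.6 and 24.8% of members. Ccr7, the chemokine receptor that leads T cells into lymph nodes, was at 159, 510, 135 and 111 CPM, and the transcription factor Lef1 at 106, 402, 109 and 46.3 CPM. Members of control 2 also carried the fewest UMIs of the 4 inclusion genes: 42.4% of them had 5 or more, against 72, 67 and 85.6% elsewhere. Results are therefore also given without control 2 or without the members that carry these transcripts, a set of 93, 84, 331 and 152 cells chosen after seeing this. Just inside the limit of 2 UMIs, Tnfrsf4 was at 95.0, 8.84, 244 and 105 CPM, and just outside it, at 1 UMI, at 49.97, 39.4, 129 and 45.7 CPM. Il18r1 was at 0, 17.7, 132 and 26.4 CPM inside and at 37.5, 27.6, 70.9 and 65.3 outside. Cd4 was at 57.0, 106, 138 and 0 CPM inside and at 62.5, 163, 129 and 78.4 outside. Both were thus higher inside the limit only in stress 1.

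Some members carried transcripts of innate-like cells. Il1rl1, Il17rb or Hs3st1, which mark group 2 innate lymphoid cells (ILC2), had a UMI in 12, 5.19, 0.674 and 2.48% of members. A gamma chain constant gene (Tcrg-C1, Tcrg-C2 or Tcrg-C4) had one in 12, 6.49, 14.4 and 19.3%, and the NK cell genes Ncr1 or Klrb1c in 3.2, 0.866, 2.47 and 2.97%. The summed CPM of the plasma cell list, led by the antibody transcripts Igha, Igkc and Jchain, was 21025, 665, 15714 and 7344, lowest in control 2, and 0 to 2 of its 10 genes were at 0. That of the myeloid list was 796, 527, 827 and 1216, with 0 to 3 of 11 genes at 0.

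The members' place among the leukocytes was compared first. They made up 4.91, 4.25, 5.35 and 4.89% of kept cells, or 4.58% ± 0.467 in controls and 5.12% ± 0.321 under stress (SD, n = 2). The groups overlapped, and the two-sided exact permutation test gave p = 0.667, where the smallest p that 2 against 2 libraries allow is 0.333. They also overlapped without innate-like members. Both stress libraries lay above both controls with a Cd4 UMI or at least 3 UMIs of the 4 inclusion genes (exact permutation p = 0.333 each). The same held without members carrying Ccr7 or Lef1, without high Scrublet scores and at no more than 5% mitochondrial UMIs. Thinning cells to 1000 UMIs before the choice gave 2.38% ± 0.894 and 3.63% ± 0.452 (SD, n = 2), also apart. Of all CD3 cells they made up 27.5, 14.6, 27.8 and 26.3% (21.1% ± 9.16 and 27.0% ± 1.04, exact permutation p = 0.667), and only control 2 lay away from the others. Without control 2 the stress libraries differed from control 1 by -0.493 points, against 5.98 points above the mean of both controls. A share is set by the numbers of the other sorted cells as well as by those of the members.

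Th1-like and Th17-like fractions were then counted within the members. Since deeper cells show more genes, each member was thinned to 1000 UMIs drawn at random, and the 5, 3, 25 and 2 shallower members were left out. A member was called Th1-like with at least 1 UMI of Tbx21, Ifng, Cxcr3 or Il12rb2 and none of Il17a, Il17f, Il23r and Ccr6, and Th17-like in the reverse case. Th1-like cells were 23.3, 9.21, 24.5 and 30.0% of members. The stress libraries were above both controls, control 1 close to stress 1, and the means were 16.3% ± 9.99 and 27.3% ± 3.87 (SD, n = 2, exact permutation p = 0.333, the smallest possible). The difference of 10.99 points came to 3.93 points without control 2. The separation did not hold in every count: the groups overlapped without thinning (37.6, 16.5, 33.9 and 41.6%), at 2000 UMIs, among members with a Cd4 UMI (27.5, 11.2, 29.3 and 23.8%) and without innate-like members, each with an exact permutation p of 0.667.

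Th17-like cells were 12.5, 6.58, 11.9 and 19.0% of members in this draw, with control 1 just above stress 1 and means of 9.54% ± 4.19 and 15.5% ± 5.02 (SD, n = 2, exact permutation p = 0.667). Averaged over all possible draws the shares were 12.9, 6.49, 13.4 and 17.1%, the stress libraries just above both controls (9.70% ± 4.53 and 15.2% ± 2.57, exact permutation p = 0.333). The groups were also apart at 500 UMIs, at 2000 UMIs, with the narrower set of Il17a and Il17f, and among members with a Cd4 UMI (15, 9.18, 16.2 and 27.0%), and they overlapped without innate-like members, without members carrying Ccr7 or Lef1, and without high Scrublet scores. On unthinned UMIs the shares were 16, 6.93, 12.6 and 12.4%, and the difference of 5.91 points came to 1.02 points (exact permutation p = 1). Under the definition first planned, with a longer list of Th17 genes, the unthinned difference was -0.312 points, the opposite direction, and the thinned one 5.18 points. The Th1-like and Th17-like definitions differ in background. The Th1 genes alone marked 0.212 to 0.760% of B cells, while the Th17 genes alone marked 5.80 to 7.71%, B cells being known to express Ccr6. The Th17 genes alone marked 0, 0, 0.264 and 0.407% of CD8 cells. They marked none of the 4-gene-negative T cells, which pass the same CD3, CD79, CD8, Trdc and Foxp3 limits with no UMI of Icos, Maf, Rora or Cxcr6. There, a count of 0 allows a share of up to 3.57, 0.852, 1.06 and 4.76%. The Th1 genes alone, in contrast, marked 18.2, 4.30, 20.6 and 24.4% of CD8 cells, where stress lay 11.2 points above control (exact permutation p = 0.333), a difference about as large as that in the members. They marked 4.55, 0, 8.33 and 8.82% of Foxp3 cells (exact permutation p = 0.333) and 13.1, 3.12, 9.22 and 12.7% of 4-gene-negative T cells, where the groups overlapped. Whether the members' difference differs from that of these classes was not tested. All the intervals and limits of shares cover counting error only.

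Members with both kinds of gene at once separated the groups without overlap. None of the 120 and 228 thinned control members carried both, which allows shares of up to 2.5 and 1.32%. Under stress 28 of 420 and 13 of 200 did, or 6.67% (95% Clopper-Pearson interval 4.48 to 9.49) and 6.5% (3.51 to 10.9), with an exact permutation p of 0.333. Among members with a Th17 gene, Th1 genes appeared in 0 of 15, 0 of 15, 28 of 78 and 13 of 51. Among members without one they appeared in 26.7, 9.86, 30.1 and 40.3%.

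The class of both kinds was not absent from controls at full depth. On unthinned UMIs it held 5, 4, 51 and 44 members, or 4, 1.73, 11.5 and 21.8%. Averaged over all possible draws of 1000 UMIs the share was 0.426% ± 0.377 in controls and 7.34% ± 1.89 under stress (SD, n = 2). Restricting the count to Ifng or Tbx21 together with Il17a or Il17f left 0 and 0% in controls and 4.52 and 4.5% under stress. A UMI each of Il17a and Ifng was found in 1, 1, 26 and 20 members without thinning. Without the barcodes that Scrublet scored highest as doublets the difference was 6.53 points against 6.58, and among members with a Cd4 UMI it was 9.09 points. The Scrublet score took out only 4, 8, 20 and 2 members. On unthinned UMIs members with both kinds had medians of 5596, 5782.5, 2616 and 6757.5 UMIs. Th17-like members had 3651.5, 3840, 2521 and 4831. The part of doublets in the class of both kinds was not tested.

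**Figure D1:**
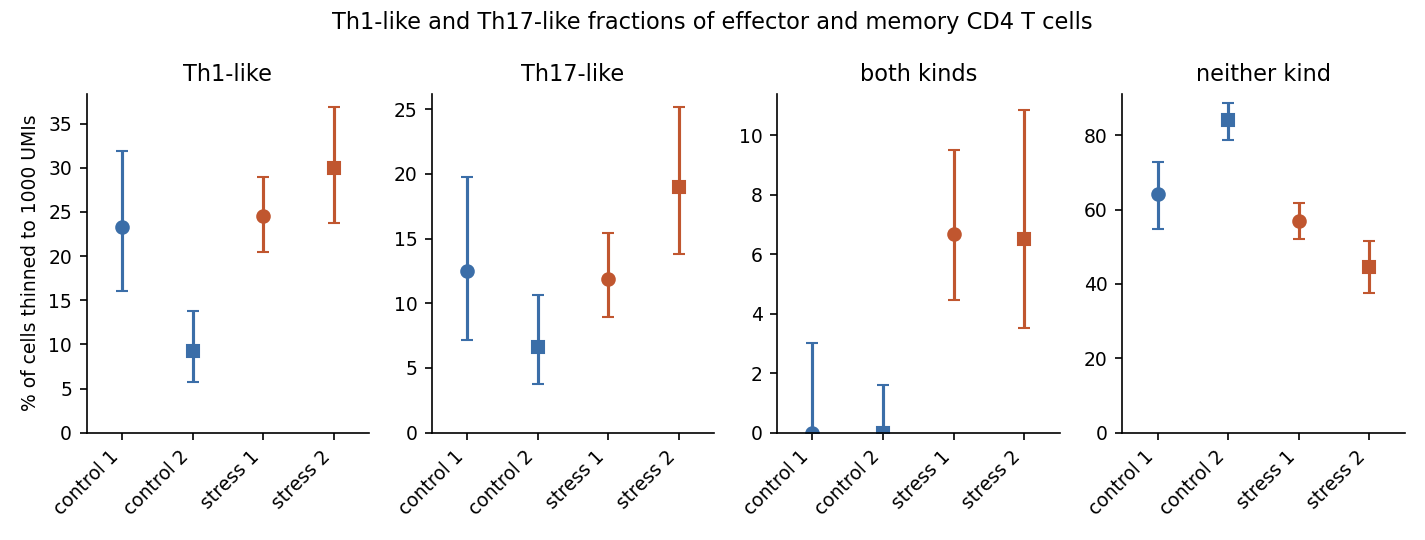
Share of effector and memory CD4 T cells in each class of Th1 and Th17 genes, in percent of cells thinned to 1000 UMIs, by library. Points are libraries and bars 95% Clopper-Pearson intervals. The class with both kinds was at 0% in both controls and at 6.67 and 6.5% under stress, while the Th17-like share of control 1 lay between those of the stress libraries in the draw shown.

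**Figure D2:**
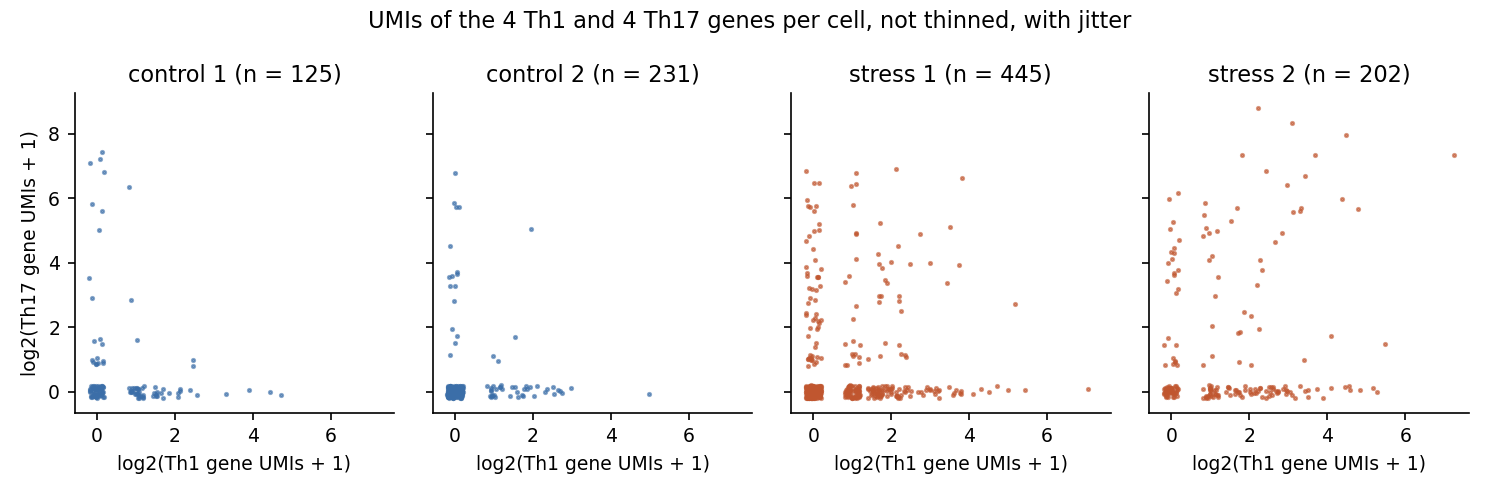
UMIs of the 4 Th1 genes against those of the 4 Th17 genes in each member, without thinning, on a log2(UMIs + 1) scale with random jitter. Cells away from both axes carry both kinds, 5 in control 1, 4 in control 2, 51 in stress 1 and 44 in stress 2.

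The cytokine genes behind these classes lie on chromosome 1 (Il17a, 20730905 to 20734496, and its neighbour Il17f) and chromosome 10 (Ifng, 118441046 to 118445892), in GRCm38. Every member with an Il17f UMI in the controls also had one of Il17a (6 of 6 and 6 of 6), as did 32 of 39 in stress 1 and 24 of 28 in stress 2. Their promoters are shown because these 2 genes appeared in the same cells. The 250 bases before each start, from RefSeq on GRCm38.p6, are given 5′ to 3′ on the gene's own strand. Capitals mark AGGTCA, a core motif that many nuclear receptors are known to bind, or its reverse complement TGACCT. It was found 120 bases before the start of Il17a and 58 before that of Il17f, and 14.0% of 32851 mouse promoter windows of that length hold it on either strand. No match lay in the window of Ifng, and the T-box motif AGGTGTGA, found in 1.12% of windows, was in none of the 3.
Il17a, chr1:20730655-20730904, plus strand: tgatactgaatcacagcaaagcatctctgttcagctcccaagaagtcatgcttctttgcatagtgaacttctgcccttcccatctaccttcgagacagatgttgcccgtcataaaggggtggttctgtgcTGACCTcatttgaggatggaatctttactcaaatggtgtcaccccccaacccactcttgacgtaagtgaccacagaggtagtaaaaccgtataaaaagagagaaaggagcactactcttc
Il17f, chr1:20784271-20784520, minus strand: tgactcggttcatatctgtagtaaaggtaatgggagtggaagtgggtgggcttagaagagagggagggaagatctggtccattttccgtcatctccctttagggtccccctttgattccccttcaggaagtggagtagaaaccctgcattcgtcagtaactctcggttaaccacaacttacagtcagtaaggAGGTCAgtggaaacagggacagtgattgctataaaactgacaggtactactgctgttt
Ifng, chr10:118440796-118441045, plus strand: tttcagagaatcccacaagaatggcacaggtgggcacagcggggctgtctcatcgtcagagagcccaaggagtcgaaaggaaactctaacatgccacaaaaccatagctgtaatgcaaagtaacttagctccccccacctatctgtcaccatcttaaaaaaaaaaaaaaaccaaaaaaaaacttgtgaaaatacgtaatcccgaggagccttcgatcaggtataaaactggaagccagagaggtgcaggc

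The classes differed in genes that did not define them, as a description with no test, since the classes were made from the same cells. For these levels the classes were made from unthinned UMIs, with 47, 38, 151 and 84 Th1-like members. Th17-like members numbered 20, 16, 56 and 25. Named are the genes with the largest ratio of mean CPM that pointed the same way in all 4 libraries, over 50 CPM in the higher class. Th1-like members were higher in the chemokines Xcl1, Ccl4 and Ccl5, the last at a mean of 3060 CPM against 105 in Th17-like members. They were also higher in the collagen-binding integrin Itga1 (100.4 against 5.15 CPM), Gzmc, a granzyme, and Cd7, Plac8, Klrd1, Ugcg and Klra7. Xcl1, Gzmc and Klra7 were at 0 UMIs in Th17-like members. Th17-like members were higher in Il22, the cytokine that acts on the epithelium, at 1544 against 95.9 CPM. The interleukin 1 receptor Il1r1 was at 138 against 9.63 CPM, the decoy receptor Il1r2 at 202 against 16.7 and the interleukin 17 receptor chain Il17re at 51.1 against 6.70. The chemokine receptor Ccr4, the chemokine Cxcl3, the macrophage transcripts C1qb and Lgmn, and Cpe and Pxdc1 were higher there as well. The C1qb mean rests on stress 2, at 12.5, 33.0, 155 and 1119 CPM, where 1 member held all 163 UMIs, and that of Lgmn leans on it too, at 25.1, 16.5, 169 and 577 CPM. Members with both kinds carried Il22 at 223, 65.2, 1776 and 4750 CPM, against 62.7, 1782, 1405 and 2924 in Th17-like members, so control 2 alone was lower in the class of both kinds. The control values of that class rest on 8 and 2 UMIs in 5 and 4 members. The Th17-like value of control 1 rests on 5 UMIs.

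Levels in the whole class were compared next, with UMIs summed over the members of each library and tested with edgeR. Of 7254 genes tested, 6 rose (percent called 0.0827) and 3 fell (percent called 0.0414) at an adjusted p under 0.05, 9 in all (percent called 0.124), while 643 had an unadjusted p under 0.05 (percent called 8.86). Among the risers were Gzma, Ccl5, Ccr1, Ermn and Iglc1, and those that fell were Ramp1, Rgcc and Hs3st1. The median log2 change over all genes tested was -0.01.

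Gzma encodes granzyme A, a protease of cytotoxic granules (chromosome 13, 113093825 to 113100981). It stood at 36.9, 9.81, 635 and 835 CPM, both stress libraries far above both controls, and rose by a log2 change of 5.04 (SE 0.44, edgeR adjusted p = 0.0098). It rested on few cells: 5, 3, 39 and 34 members carried it, and 5 cells held 56.7% of its UMIs in stress 1 and 75.7% in stress 2. After thinning it was seen in 0.833, 0.877, 6.90 and 9.5% of members, against 0.461, 0.0354, 0.944 and 1.74% of B cells, which lack it. Among members with a Cd4 UMI it was at 18.2, 4.92, 372 and 259 CPM and rose by 4.98 (edgeR adjusted p = 0.00143). Without members carrying an innate lymphoid or gamma chain transcript it had 4, 8, 193 and 608 UMIs, against 16, 8, 723 and 883. Gzma did not pass there (edgeR adjusted p = 0.439).

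Ccl5, a chemokine that memory and effector T cells store, stood at 563, 535, 2978 and 1926 CPM (log2 2.03, SE 0.25, edgeR adjusted p = 0.0098). Among members with a Cd4 UMI it was at 642, 278, 1917 and 1004 CPM and no longer passed (log2 1.58, edgeR adjusted p = 0.408). Ccr1, a receptor of Ccl5, stood at 16.1, 14.7, 96.6 and 85.1 CPM and rose as well (log2 2.43, SE 0.29, edgeR adjusted p = 0.0098). For both genes the stress libraries lay above both controls. Ccr1 was carried by 6, 7, 55 and 30 members, and Ermn, an actin-binding protein best known from oligodendrocytes, by 2, 1, 25 and 17 (4.61, 2.45, 49.2 and 36.9 CPM, log2 3.56, edgeR adjusted p = 0.0259).

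Ramp1 pairs with Calcrl to form the receptor of CGRP, a peptide released by sensory nerves (Ramp1: chromosome 1, 91179822 to 91225196). It stood at 168, 132, 36.0 and 40.7 CPM, both stress libraries below both controls, and fell by 2.08 on the log2 scale (SE 0.23, edgeR adjusted p = 0.0098). It was seen in 11.7, 12.3, 2.62 and 1.5% of thinned members. Among members with a Cd4 UMI it was at 157, 121, 23.9 and 46.1 CPM and did not pass (log2 -2.02, edgeR adjusted p = 0.0558). With the classes made from unthinned UMIs, Ramp1 was at 401, 198, 98.4 and 96.1 CPM within Th17-like members. Within Th1-like members it was at 63.4, 44.7, 16.3 and 2.42 CPM, so the stress libraries were the lower ones in both classes. The Th1-like levels rest on few UMIs, 9 in control 1 and 1 in stress 2. Calcrl was too low to be tested, at 4.61, 17.2, 7.02 and 10.4 CPM. Calca, the gene of CGRP itself, was at 53.1, 22.1, 2.63 and 5.67 CPM and did not pass (log2 -3.15, edgeR adjusted p = 0.107), with its UMIs in 6, 5, 3 and 3 members. Calca is also on the ILC2 list, and it was at 8.72, 2.77, 2.20 and 1.28 CPM once members with an innate lymphoid or gamma chain transcript were left out, too low to be tested.

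Rgcc, a regulator of the cell cycle, stood at 812, 479, 158 and 214 CPM and fell by 1.90 on the log2 scale (SE 0.28, edgeR adjusted p = 0.0361). Hs3st1, a sulfotransferase that ILC2 express, had 19, 23, 0 and 1 UMIs in 7, 6, 0 and 1 members and fell (edgeR adjusted p = 0.0098). No fold is given for it because 1 stress library was at 0. Iglc1, an antibody light chain of plasma cells, stood at 23.1, 29.4, 92.2 and 123 CPM (log2 1.86, edgeR adjusted p = 0.0449), and was the only one of the 9 to lose its call when 1 library was left out, stress 2. The part of plasma cell RNA in it was not tested.

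Leaving out the members with an innate lymphoid or gamma chain transcript, which left 98, 207, 371 and 154 cells, left no gene called, with 510 under an unadjusted p of 0.05. The directions were those found above: Gzma had a log2 change of 5.30 (11.6, 11.1, 213 and 781 CPM, edgeR adjusted p = 0.439), and Ccl5, Ccr1, Ramp1 and Rgcc each had an edgeR adjusted p of 0.062, with changes of 1.70, 2.57, -2.22 and -1.91. Hs3st1 is at 0 there by construction. Among members with no UMI of Ccr7 or Lef1, 45 genes were called, 18 up and 27 down, 7 of them among the 9.

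**Figure D3:**
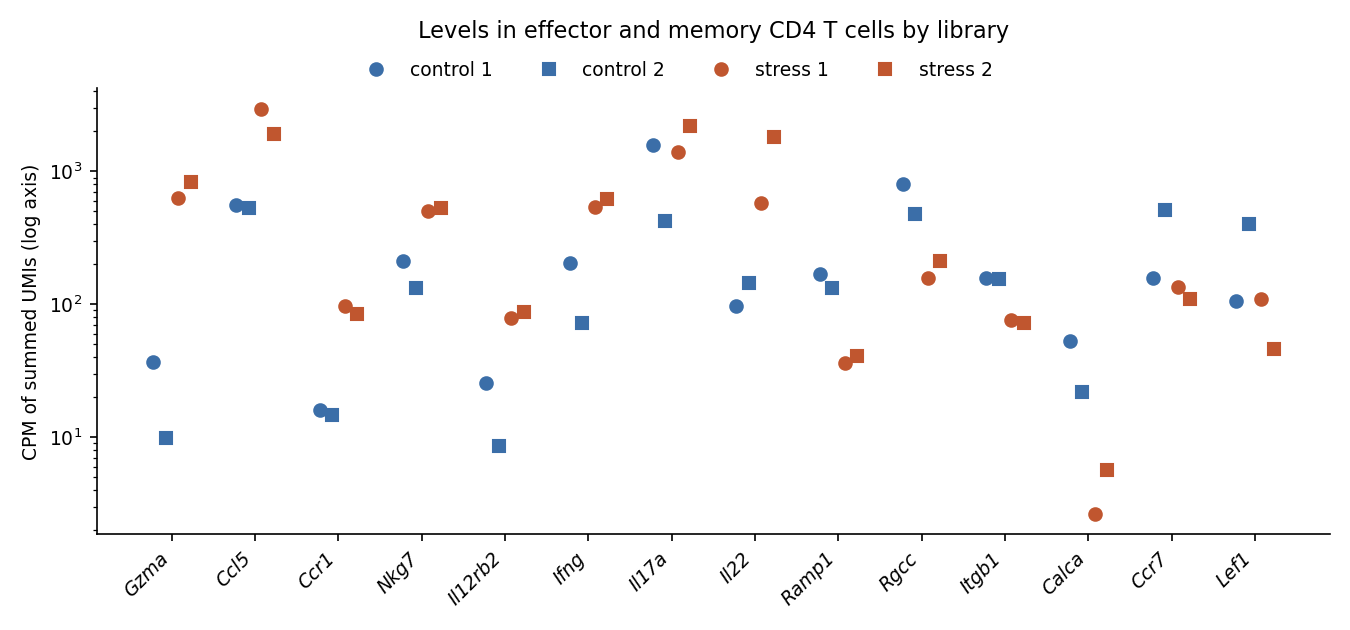
CPM of summed UMIs in effector and memory CD4 T cells for 14 named genes, on a log axis. Each point is 1 library. Gzma, Ccl5 and Ccr1 were higher and Ramp1 and Rgcc lower in both stress libraries, while Ccr7 and Lef1 were highest in control 2.

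The remaining genes with the smallest p did not pass. Among those with positive changes were Nkg7 (212, 132, 506 and 530 CPM, edgeR adjusted p = 0.0537) and Il12rb2, the interleukin 12 receptor chain of Th1 cells (25.4, 8.58, 79 and 87.0 CPM, adjusted p = 0.055). Gzmb, the granzyme that activates caspases, was at 221, 95.6, 673 and 532 CPM, the protease Ctsb at 108, 93.2, 233 and 228 and Itga1 at 27.7, 20.8, 70.2 and 65.2. The complement genes C1qb (13.8, 2.45, 86.9 and 168 CPM) and C1qc are macrophage genes, and 163 of the 178 C1qb UMIs of stress 2 lay in 1 member. Without high Scrublet scores C1qb was at 12.5, 2.61, 11.7 and 166 CPM, and the groups overlapped. Among those with negative changes were the integrin chain Itgb1 (159, 156, 76.4 and 71.9 CPM, adjusted p = 0.0774) and Ifngr2, a chain of the interferon gamma receptor (60.0, 132, 24.6 and 17.02 CPM, adjusted p = 0.0865). Pdlim1, Tmem64, Prkd3, Pxdc1, Man1a, Dph5 and Me2 followed, with log2 changes between -2.16 and -1.02.

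Gene lists were read by their counts and medians. Every count of positive changes below is to be set against the 49.2% of all genes tested. Of 11 Th1 genes tested, 1 rose (Ccl5), 0 fell and 10 did not pass. All 11 had a positive change, where 49.2% of all genes tested did, and all 11 lay above both controls in both stress libraries, where 28.5% of all genes did. The median log2 change was 0.92, or 0.60 without control 2, and 0.48 among members without the naive transcripts. Ifng itself was at 205, 72.3, 543 and 619 CPM (log2 2.01, SE 0.42, edgeR adjusted p = 0.217), in 10, 4.39, 18.1 and 20% of thinned members. It passed among members with no naive transcript (297, 209, 671 and 760.4 CPM, log2 1.43, edgeR adjusted p = 0.0016), a set chosen after seeing the data. It did not pass among members with a Cd4 UMI (adjusted p = 0.705), without innate-like members (0.306) or without high Scrublet scores (0.282). Tbx21 was at 27.7, 15.9, 39.5 and 31.2 CPM and Stat4, which carries the interleukin 12 signal, at 245, 251, 448 and 410.

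Of 14 Th17 genes, 0 rose, 1 fell (Ramp1) and 13 did not pass, with 10 positive changes and a median of 0.81, or 0.16 without control 2. Il17a was at 1575, 424, 1405 and 2213 CPM, with control 1 between the stress libraries (log2 0.76, SE 0.69, edgeR adjusted p = 0.838). It came from 15, 16, 80 and 53 members, or 7.5, 6.58, 14.0 and 20.5% after thinning, and 5 cells held 79.1% of its UMIs in control 1. Il17f was at 240, 71.1, 242 and 561 CPM. Il22 stood at 96.9, 145, 584 and 1813 CPM (log2 3.16, edgeR adjusted p = 0.312), the stress libraries above the controls but far from each other, and 5 cells in each library held 64.1 to 90.5% of it. Ccl20, the ligand of Ccr6, was at 57.7, 22.1, 208 and 777 CPM.

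Type 2 genes had negative changes without passing. None of 6 Th2 genes passed and none had a positive change, with a median of -1.67. Il4, the type 2 cytokine, was at 48.4, 13.5, 5.27 and 1.89 CPM (edgeR adjusted p = 0.245), the interleukin 33 receptor Il1rl1 at 34.6, 19.6, 5.27 and 3.78 and Gata3, the factor that sets the type 2 programme, at 99.2, 80.9, 44.8 and 69.0. Of the 7 ILC2 genes tested, which share Gata3, Il1rl1 and Il17rb with the Th2 list, 1 fell (Hs3st1) and 1 was positive, with a median of -2.58. The summed CPM of the 14 ILC2 genes was 793, 412, 551 and 420, held up by Areg, and 1, 2, 7 and 4 of them were at 0. How much of the Th2 list comes from ILC2 was not tested.

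Of 22 interferon gamma response genes 0 rose and 0 fell, 21 had a positive change (49.2% of all genes tested did) and 15 lay above both controls in both stress libraries (28.5% of all genes did). Their median was 0.69, or 0.30 without control 2. Among them were the GTPases Igtp (69.2, 72.3, 140 and 130 CPM) and Gbp2 (76.1, 34.3, 117 and 97.4), and Ly6a (406, 186, 686 and 630). Of 13 type I interferon genes 10 were positive, with a median of 0.26. Of 21 effector cytokines and chemokines 1 rose (Ccl5) and 17 were positive (median 0.92). Of 12 cytotoxicity genes 1 rose (Gzma) and 8 were positive (median 0.87, and 1.00 without control 2). Klrg1, a receptor of terminal effectors and of ILC2, was at 55.4, 19.6, 12.3 and 9.45 CPM.

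Of 22 memory and residency genes 0 passed and 17 were positive (49.2% of all genes tested were), with a median of 0.35, or 0.05 without control 2. Rgs1, which restrains chemokine signals, was at 1485, 644, 2194 and 2519 CPM, and Rbpj, which carries Notch signals, at 106, 72.3, 186 and 247. Il7r, the survival receptor of resting memory cells, was at 620, 673, 450 and 439 CPM (log2 -0.67, edgeR adjusted p = 0.312). Of 10 naive and central memory genes none was positive, but the median of -1.54 came to -0.05 without control 2. Of 15 homing genes 0 passed and 12 were positive, with the monocyte-chemokine receptor Ccr2 at 191, 98.1, 278 and 275 CPM and the gut chemokine receptor Ccr9 at 60.0, 4.90, 52.7 and 71.9.

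Of 18 co-stimulatory and checkpoint genes 0 passed and the median was 0.18, or -0.33 without control 2. In both stress libraries 7 of them lay above both controls (28.5% of all genes did) and 2 below (11.9% did), and 9 overlapped. The inhibitory receptors Ctla4 (1112, 443, 1460 and 1520 CPM) and Lag3 (69.2, 54.0, 126 and 113 CPM), and Tnfsf8, the ligand of CD30 (208, 118, 380 and 321 CPM), lay above the controls in both stress libraries, while Tnfrsf4 overlapped. Of 27 cytokine receptor and Jak-Stat genes 0 passed (median 0.14), with Stat3, which carries interleukin 6 and 23 signals, at 150, 145, 266 and 306 CPM. Of 23 genes of T cell receptor signalling and early activation 0 passed (median -0.16), nor did any of 22 cell cycle genes (median 0.50, or -0.24 without control 2), 16 glycolysis genes (0.24) and 12 heat shock genes (0.01).

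Genes that answer to stress hormones did not pass. Of 18 glucocorticoid-responsive genes 0 passed and 5 were positive, with a median of -0.24. Tsc22d3, which encodes the glucocorticoid-induced leucine zipper, was at 265, 259, 190 and 189 CPM (log2 -0.59, edgeR adjusted p = 0.358), Fkbp5, a co-chaperone of the glucocorticoid receptor, at 32.3, 31.9, 40.4 and 50.1, and the clock gene Per1 at 76.1, 88.3, 85.1 and 69.0. Of the 14 adrenergic and neuropeptide receptor genes listed 4 could be tested, of which Ramp1 fell and 0 rose. The 12 CD4 lineage genes had a median of 0.13 with none called. The lists of other cell types held 0 calls among 10 ILC3, 5 gamma-delta T, 4 NK and invariant T, 2 B and 2 stromal and epithelial genes tested, and 1 among 8 plasma cell genes (Iglc1). Their medians were 0.03, 0.53, 0.02, -0.46, -1.03 and 0.29, and that of 6 myeloid genes, with no call, was 0.87.

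**Figure D4:**
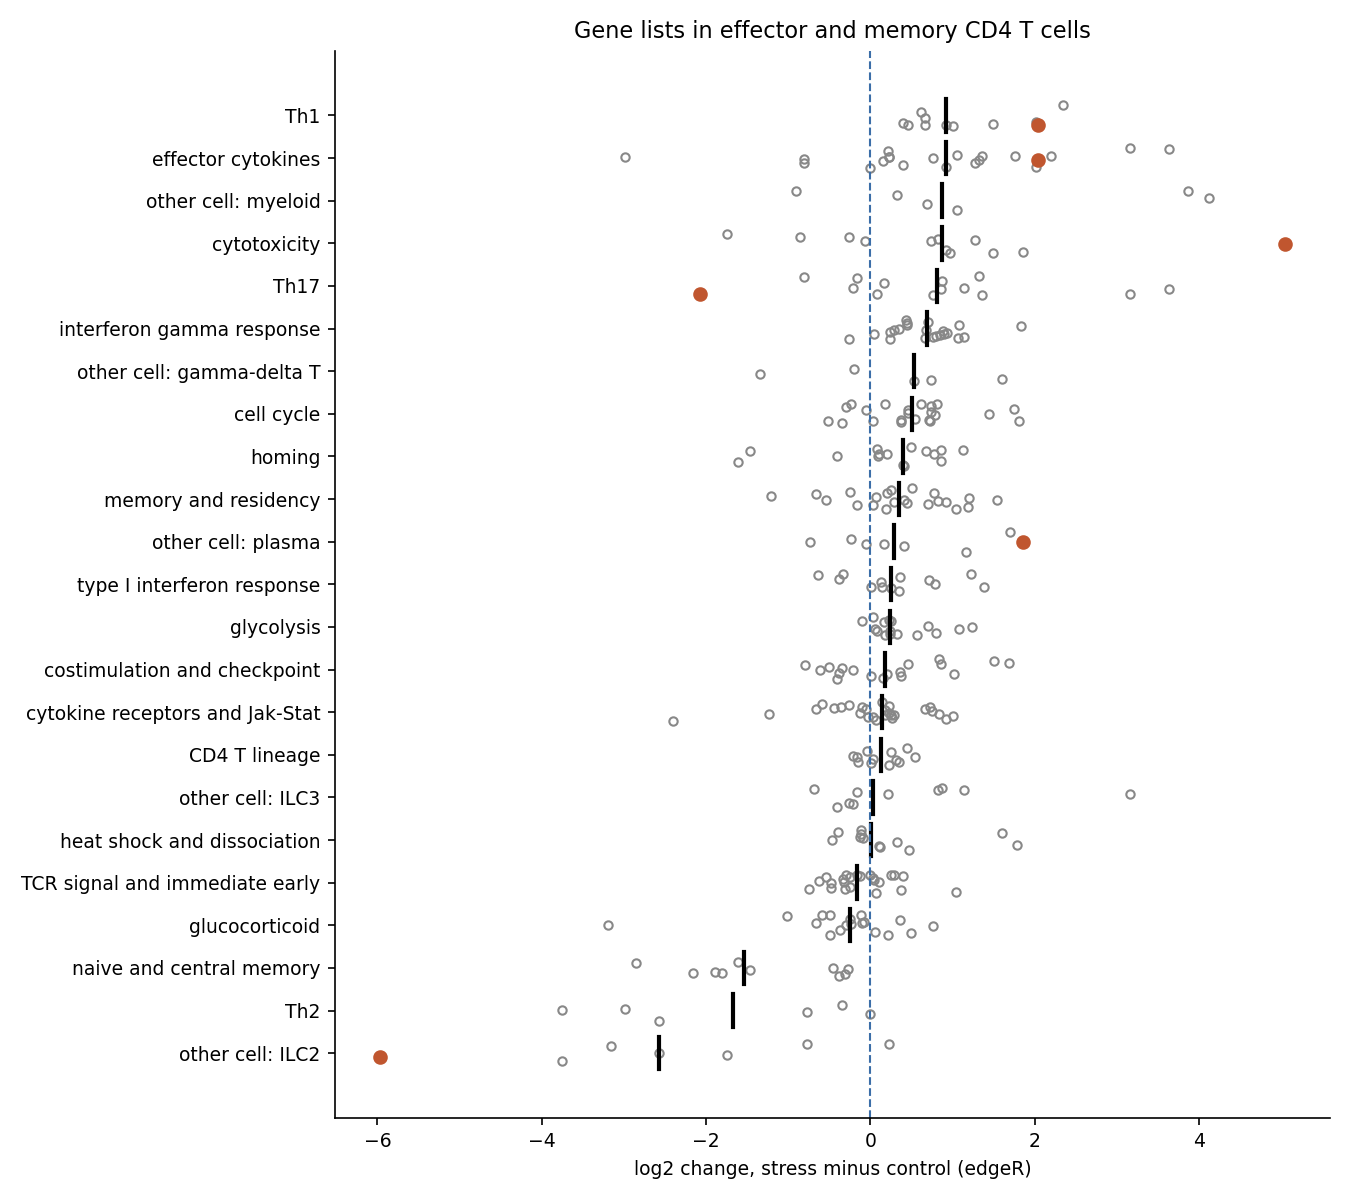
Log2 change, stress minus control, of each gene tested in 23 gene lists of at least 5 tested genes. Circles are genes, filled where the edgeR adjusted p was under 0.05, black bars are list medians and the dashed line is the median of all genes tested, -0.01. The Th1 list lies to the right of that line throughout, with a median of 0.92, and the Th2 list has a median of -1.67.

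The effect of stress was then compared with that in other CD3 cells of the same libraries, in 1 model with the library as a block. The nearest class by its limits is the 4-gene-negative T cells (88, 363, 306 and 69 cells), of which 1.14, 28.1, 14.7 and 20.3% carried a Cd4 UMI, so those of control 1 lack the CD4 marker. There the effect differed for 27 of 7345 genes, 11 of them larger in members (percent called 0.15) and 16 smaller (percent called 0.218), while 6.39% had an unadjusted p under 0.05. With DESeq2 only 3 genes passed, the macrophage genes C1qb, C1qc and Apoe. Ifng was one of the 11: it stood at 186, 41.2, 87.2 and 228 CPM in the negative cells, where the groups overlapped, and the difference was 1.51 (SE 0.32, edgeR adjusted p = 0.0254). It did not pass without control 1 (adjusted p = 0.176) or without stress 1 (0.78). Rgs1 differed by 1.05 (edgeR adjusted p = 0.00601), and did not pass without control 1 (0.316), control 2 (0.0547) or stress 1 (0.282). Lef1 and Dapl1, genes of naive cells, differed by -1.26 and -2.17, and neither passed without control 2 (adjusted p = 0.693 and 0.811) or stress 1 (0.610 and 0.605). Ifngr2 differed by -1.59 (edgeR adjusted p = 0.0412), which ended without control 2 (0.151), stress 1 (0.789) or stress 2 (0.0533).

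Gzma was higher under stress elsewhere too. It was at 190, 3.51, 1461 and 911 CPM in the negative cells, where the effect was not shown to differ (0.74, edgeR adjusted p = 0.992). In CD8 cells it stood at 1279, 505, 4797 and 5559 CPM, both stress libraries above both controls, and the effect was larger in members by 2.49 (SE 0.26, edgeR adjusted p = 4.47e-08). Against CD8 cells, 5 of 8298 genes had a larger effect in members (percent called 0.0603) and 8 a smaller one (percent called 0.0964), and 6.15% had an unadjusted p under 0.05. Ccr1 was among the former, at 11.4, 8.98, 7.10 and 1.52 CPM in CD8 cells (difference 3.79, edgeR adjusted p = 0.00123, and 0.129 without control 2). With DESeq2 the difference passed for Gzma and not for Ccr1 (DESeq2 adjusted p = 0.243). The CD8 levels of Ccr1 rest on 4, 23, 8 and 2 UMIs. The effects on Ramp1 and Rgcc were not shown to differ from those in CD8 cells, with differences of -0.42 (SE 0.38) and -0.19 (SE 0.79).

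Against Foxp3 regulatory T cells (22, 49, 60 and 34 cells) no gene of 5006 passed in edgeR (percent called 0.0). An unadjusted p under 0.05 was found for 262 of them, or 5.23%, and 2 genes passed in DESeq2. The 5 genes with the smallest p were Mzb1, Cd14, Rbpj, Tnfsf8 and Clcn3. Rbpj differed by 2.04 (edgeR adjusted p = 0.285) and Tnfsf8 by 1.93 (0.285). Ramp1 was at 23.3, 104, 47.1 and 21.7 CPM in Foxp3 cells, where the groups overlapped.

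**Figure D5:**
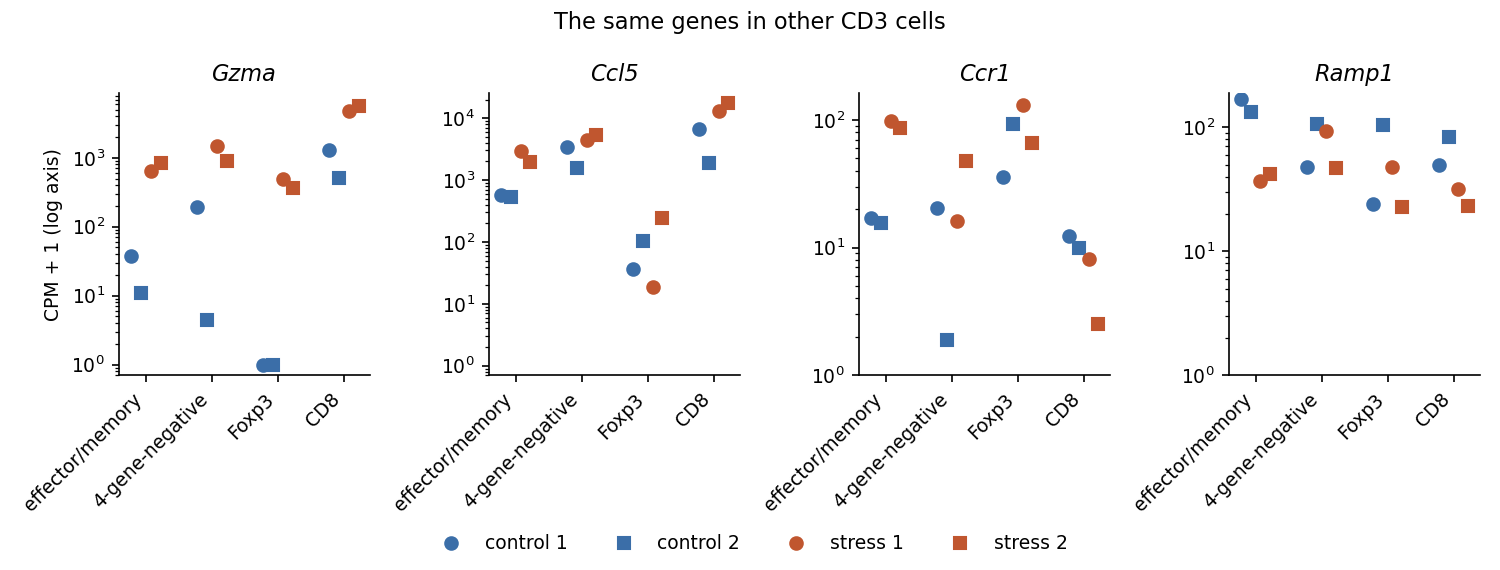
CPM + 1 on a log axis of Gzma, Ccl5, Ccr1 and Ramp1 in effector and memory CD4 T cells and in 3 other classes of CD3 cells, 1 point per library. Gzma was higher in both stress libraries in every class shown, at 0 UMIs in Foxp3 cells of both controls. Ramp1 lay apart by group without overlap in the effector and memory cells and in CD8 cells.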

How the data were processed

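The authors deposited 1 matrix of UMI counts per gene and barcode for each library, per the file headers with software 3.1.0. The submitters' processing notes name Cell Ranger 5 and 5.0 and the build mm10. For the authors' gene annotation, no release was found in these sources. No normalisation had been applied to the deposited counts of 31053 genes.

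Barcodes were kept with at least 500 UMIs, at least 200 genes and no more than 10% of UMIs from mitochondrial genes (2546, 5436, 8319 and 4127 barcodes). No doublets were removed. As an alternative, the barcodes with the highest Scrublet scores (scanpy 1.11.5) were left out at 0.8% per 1000 barcodes, among them 4, 8, 20 and 2 members. The members and the 28 gene lists were chosen with earlier results of these data known. Some genes are not reported here, and they were taken out of the lists and the Th17 definition after the data were seen. UMIs were summed per library over the members (433529, 815545, 1139206 and 1057644) and tested with edgeR 4.0.16 (R 4.3.3): TMM, filterByExpr, robust quasi-likelihood, Benjamini-Hochberg adjustment over all genes tested, adjusted p under 0.05. DESeq2 1.42.0 was an alternative. Levels are CPM without TMM factors. On simulated counts of 6981 genes the members' fit recovered 68 of 100 genes changed 2-fold and 99 of 100 changed 4-fold, with 4 false calls. The changed genes were drawn only from well-expressed genes. The same spread between libraries was set for every gene, with no library set apart. These rates therefore do not carry over to low or more variable genes. Thinning drew 1000 UMIs per cell without replacement (seed 1). Exact permutation tests were two-sided. How the authors' counting treated strand and overlapping genes was not given, and Iglc1 has near-identical copies among the light chain genes.

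Named are the genes of the lists, the 12 genes per direction with the smallest p above a mean of 20 CPM, the 5 with the smallest p in each difference test, and the 10 genes per helper class with the largest ratio above 50 CPM. Immunoglobulin and T cell receptor segments, mitochondrial, Xist and Y-linked genes, genes of the rule and clone names were left out of the ranked genes. Gene coordinates come from GENCODE vM21 on GRCm38.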

Additional observations from a re-analysis of the deposited data

Results flagged for a closer look

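The results below are those in which the effect of stress in the effector and memory CD4 T cells differed from that in another class of CD3 cells by a test of the difference itself, in edgeR with the library as a block. All values are log2 differences, members minus the other class.

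Against the 4-gene-negative T cells, C1qb differed by 5.92, C1qc by 6.53 and Apoe by 2.55, all of them macrophage genes. In the negative cells C1qb had 21, 79, 14 and 5 UMIs, and in members 6, 2, 99 and 178, of which 163 lay in 1 cell of stress 2. Without high Scrublet scores the members held 5, 2, 12 and 173 C1qb UMIs, and the difference was not tested in that set. Hspa1a, a heat shock gene, differed by 1.36 and Rgs1 by 1.05. Ifng differed by 1.51, Ifngr2 by -1.59, Lef1 by -1.26 and Dapl1 by -2.17. The last pair leaned on control 2, without which Lef1 differed by -0.757 and Dapl1 by -1.29. With DESeq2 C1qb, C1qc and Apoe kept the call, while Hspa1a, Rgs1, Ifng, Ifngr2, Lef1 and Dapl1 lost it. Ifng also did not pass above a mean of 20 CPM (edgeR adjusted p = 0.0846).

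Against CD8 cells, Gzma differed by 2.49, Ccr1 by 3.79 and the activating receptor Klrk1 by -1.78. With DESeq2 Gzma kept its call, while Ccr1 (DESeq2 adjusted p = 0.243) and Klrk1 (0.697) lost it. Ccr1 had 4, 23, 8 and 2 UMIs in CD8 cells and 7, 12, 110 and 90 in members. Il17a gave -7.31 and the macrophage gene Ms4a7 13.2, and neither value is a measure of size, since 1 class was at 0 UMIs in both controls. Il17a had 0, 0, 43 and 90 UMIs in CD8 cells and 683, 346, 1601 and 2341 in members. Ms4a7 had 0, 0, 6 and 53 UMIs in members and 14, 24, 1 and 0 in CD8 cells. With DESeq2 Il17a kept its call and Ms4a7 lost it.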

How the results depend on the processing

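Directions held more often than calls. The 9 genes called in members kept their direction in all 158 comparisons with an alternative that gave a value and lost the call in 34. Gzma, Ccl5, Ccr1 and Ramp1 lost it in 3 each, Rgcc in 6. The number of genes called in members was 9 and moved to 26 with DESeq2, 185 without a low count filter, 15 with at least 3 UMIs of the 4 genes, 45 without members carrying Ccr7 or Lef1, 1 with 125 cells per library and 0 without innate-like members, where 510 genes were under an unadjusted p of 0.05. It was 8 among members with a Cd4 UMI and 10 at no more than 5% mitochondrial UMIs. Only 3 and 4 of the 9 were among these. Leaving out 1 library gave 29 (without stress 2) to 684 calls (without control 1), with 153 without control 2 and 66 without stress 1, 8 or all of the 9 among them, and these fits take the lone library to vary like the other group. Whether the replicate numbers pair the libraries cannot be settled from 2 libraries per group (correlation of deviations of control 1 and stress 1 -0.0857). With the number as a replicate block 13 genes were called, and with crossed numbers, chosen after seeing the data, 191. Differences from the negative cells moved from 27 to 3 with DESeq2 and 8 to 109 without 1 library, from Foxp3 cells from 0 to 2 with DESeq2 and 4 to 37, and from CD8 cells from 13 to 3 with DESeq2, 7 above a mean of 20 CPM and 20 to 65. The stress difference in the share of kept cells ranged from 0.212 to 0.872 points without 1 library, in the share of CD3 cells from -0.493 (without control 2) to 12.5, in the Th1-like share from 3.93 to 18.1, in the Th17-like share from 2.37 to 9.46 and in the share of both kinds from 6.5 to 6.67. The Th17-like difference was 1.02 points without thinning, and under the definition first planned it was 5.18 points with thinning and -0.312 without, the opposite direction. The causes were not tested. Sums of 433529 UMIs in the smallest library and 125 cells limit what low genes can show.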
